A study of Homo sapiens with 6 samples.

Results

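Methylation of lysine 9 of histone H3 is set by methyltransferases, called writers here, and removed by demethylases, called erasers. The 10 genes described are 6 erasers (KDM3A, KDM3B, JMJD1C, KDM4A, KDM4B and KDM4C) and 4 writers (EHMT1, EHMT2, SUV39H2 and SETDB1), chosen as enzymes of this mark and not by a threshold on any value. Earlier results of these data were known at that choice. The 10 genes were taken by symbol from an annotation of 64449 genes on hg19, of which 20163 are protein-coding. For each gene, regions were collected within 5 kb of any of its annotated transcription start sites (TSSs), called the gene window, and in the gene body. The same genes were read in 4 lists of regions from HCT116, a long-established line of human colorectal cancer cells. Cells carrying a scramble shRNA (HCT116/Scrsh, "Con" in the sample titles) were set beside cells carrying an shRNA against both KDM3A and KDM3B (HCT116/ABsh-1, "KD"). The sample labels call the treatment siRNA, whereas the methods of the study describe stable shRNA. Each population was examined by ChIP-seq with an antibody to KDM3B and with an antibody to H3K9me2, the dimethylated form of the mark. There was 1 library per antibody and population, so there were no replicates, every difference described is between single libraries, and no test was made. The lists hold positions and an unlabelled score, not reads, so the depth is unknown and a region that is not listed may have been missed rather than absent.

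H3K9me2 is a mark of silent chromatin that lies in broad stretches over repressed genes. KDM3A and KDM3B are JmjC enzymes that remove mono- and dimethylation of H3K9, JMJD1C is their closest relative, and the KDM4 enzymes prefer the trimethylated form and also act on H3K36. EHMT1 and EHMT2, also known as GLP and G9a, form a dimer that writes H3K9me2 in gene-rich chromatin, whereas SUV39H2 and SETDB1 mainly write the trimethylated form. The enzyme targeted in HCT116/ABsh-1 and its substrate mark were thus read at the genes of the enzymes themselves. The files hold no RNA levels, and the degree of knockdown was not measured in them. The study reports efficient knockdown of both proteins in HCT116 cells with this shRNA, by western blot.

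Sequences are given for the regions on which the description turns, from the plus strand of hg19, with each CpG in capitals because the lists differed in CpG content. Stretches over annotated untranslated exons are left out. KDM3A is shown for the part outside such exons of its KDM3B region (chr2:86668090-86668389), which HCT116/Scrsh held and HCT116/ABsh-1 did not. JMJD1C is shown for the regions that the KDM3B lists held in HCT116/Scrsh (chr10:65029001-65029100) and, after knockdown, in HCT116/ABsh-1 (chr10:65226001-65226100), which are different places. KDM4B and KDM4C are shown for an intronic KDM3B region that both populations shared (chr19:5031701-5031900 and chr9:7052701-7052900).
KDM3A, KDM3B region near the TSS: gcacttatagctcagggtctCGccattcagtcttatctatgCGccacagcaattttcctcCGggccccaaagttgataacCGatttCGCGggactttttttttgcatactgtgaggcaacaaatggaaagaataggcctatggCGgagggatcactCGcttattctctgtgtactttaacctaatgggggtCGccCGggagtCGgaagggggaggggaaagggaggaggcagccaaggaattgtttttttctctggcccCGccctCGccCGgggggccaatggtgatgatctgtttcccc
JMJD1C, KDM3B region of HCT116/Scrsh: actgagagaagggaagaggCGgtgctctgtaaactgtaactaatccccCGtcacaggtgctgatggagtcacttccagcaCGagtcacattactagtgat
JMJD1C, KDM3B region of HCT116/ABsh-1: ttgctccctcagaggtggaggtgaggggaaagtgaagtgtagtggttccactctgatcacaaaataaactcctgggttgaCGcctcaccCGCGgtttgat
KDM4B, shared KDM3B region of intron 2: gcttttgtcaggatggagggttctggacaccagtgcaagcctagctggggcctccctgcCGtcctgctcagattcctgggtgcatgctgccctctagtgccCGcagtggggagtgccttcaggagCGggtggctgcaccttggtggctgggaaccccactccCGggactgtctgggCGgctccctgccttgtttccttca
KDM4C, shared KDM3B region of intron 17: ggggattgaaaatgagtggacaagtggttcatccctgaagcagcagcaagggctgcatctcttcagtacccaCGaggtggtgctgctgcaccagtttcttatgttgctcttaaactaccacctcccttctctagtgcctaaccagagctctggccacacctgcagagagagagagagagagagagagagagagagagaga
The KDM3A stretch has 14 CpGs in 300 bases, whereas the KDM4C stretch has 1 in 200 bases and ends in a run of repeated ga.

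For H3K9me2, the sequences shown are the middle of the widest region of KDM4B in HCT116/ABsh-1 (chr19:5134051-5134250), as the gene with the most regions, and the middle of the region of EHMT2 nearest its main TSS (chr6:31864151-31864450), as an example from a writer.
KDM4B, widest H3K9me2 region of HCT116/ABsh-1: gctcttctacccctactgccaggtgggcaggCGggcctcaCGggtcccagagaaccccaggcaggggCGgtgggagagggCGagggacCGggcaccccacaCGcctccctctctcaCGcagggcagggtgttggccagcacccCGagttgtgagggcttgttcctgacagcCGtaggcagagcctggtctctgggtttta
EHMT2, H3K9me2 region of HCT116/ABsh-1: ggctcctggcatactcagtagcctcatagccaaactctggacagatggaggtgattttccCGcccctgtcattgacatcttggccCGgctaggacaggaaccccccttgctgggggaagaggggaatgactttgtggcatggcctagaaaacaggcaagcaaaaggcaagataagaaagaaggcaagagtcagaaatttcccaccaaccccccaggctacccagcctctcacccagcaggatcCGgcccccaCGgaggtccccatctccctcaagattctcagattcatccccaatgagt
The KDM4B stretch had a GC content of 67.5% and that of EHMT2 55.3%.

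The series as a whole bears on each count below. The KDM3B lists held 17638 regions (HCT116/Scrsh) and 8046 regions (HCT116/ABsh-1), and the H3K9me2 lists held 11645 and 88855. The H3K9me2 list of HCT116/ABsh-1 also differed in kind, since its regions had a median GC content of 62.4% against 52.7 to 55.0% in the other 3 lists. Regions of a single 100-bp window made up 41.3 to 72.9% of the lists, although the methods describe a requirement for neighbouring windows. What column 5, the score, measures is not given in the sources used here, and it was used only as a rank within its own list. A score percentile of 90 therefore means that about 90% of the regions of that list scored no higher.

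Among the 10 genes, regions of KDM3B lay at erasers and at none of the writers. Among the other genes of H3K9 methylation described below, 3 of 7 erasers and 4 of 5 writers had one in HCT116/Scrsh. In HCT116/Scrsh, 5 of the 10 genes had a KDM3B region in the gene window, namely KDM3A, JMJD1C, KDM4A, KDM4B and KDM4C. Of all protein-coding genes, 35% had one in the window and 43.5% in the window or gene body. In HCT116/ABsh-1, JMJD1C, KDM4B and KDM4C had one, 3 of 10 against 19.2% of all protein-coding genes in the window and 25% in the window or gene body. KDM3A and KDM4A were thus listed in HCT116/Scrsh only (2 of 10, against 23% of all genes), JMJD1C, KDM4B and KDM4C in both (3 of 10, against 20.5%), and no gene in HCT116/ABsh-1 only (0 of 10, against 4.48%). With regions of at least 200 bp alone, 3 genes were left in HCT116/Scrsh, because the regions of JMJD1C and KDM4A were 1 window wide. The shares of the 10 genes lay near these backgrounds or rest on so few genes that nothing particular to them can be read from the counts.

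H3K9me2 regions were listed at few of the genes before and at some writers and erasers after the depletion of KDM3A and KDM3B. In HCT116/Scrsh, KDM4C alone had an H3K9me2 region in the window, 1 of 10 against 10.2% of all protein-coding genes. With the gene body, JMJD1C was added, giving 2 of 10 against 17.8%. In HCT116/ABsh-1, KDM4B, KDM4C, EHMT1 and EHMT2 had one in the window, 4 of 10 against 49.2%, and no further gene was added by the gene body (56.4% of all genes). KDM4B, EHMT1 and EHMT2 were listed in HCT116/ABsh-1 only (3 of 10, against 40.8%), KDM4C in both (1 of 10, against 15.6%) and JMJD1C in HCT116/Scrsh only (1 of 10, against 2.15%). In HCT116/Scrsh these counts of 1 or 2 genes are too small to read against the background. In HCT116/ABsh-1 the number of genes lay near the background, and nothing particular to the 10 genes can be read from it. The regions were not spread evenly. Of the 158 H3K9me2 regions, 110 were in KDM4B, 34 in EHMT1, 12 in KDM4C and 2 in EHMT2. When the longer list of each antibody was shortened by score to the number of regions in the shorter one, KDM4B still had 24 H3K9me2 regions in HCT116/ABsh-1, EHMT1 had 1, which lies over a neighbouring gene, and KDM4C and EHMT2 had 0. The median over the 10 gene bodies was 0.0 covered bases per kb, against 0.52 over all protein-coding genes. Only 51.2% of all protein-coding gene bodies had any covered base in that list, so these medians are both near the floor.

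**Figure D1:**
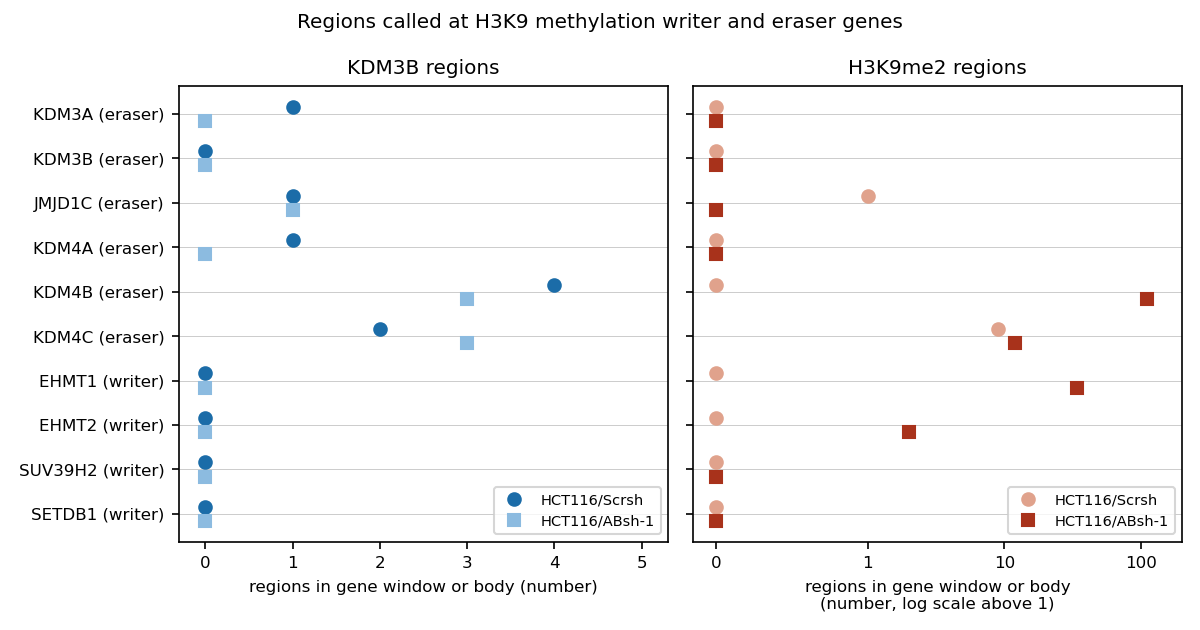
Number of KDM3B regions (left, linear axis) and H3K9me2 regions (right, log axis above 1) in the window or body of each gene, 1 point per library, with circles for HCT116/Scrsh and squares for HCT116/ABsh-1. KDM3B regions lie at 5 of the 6 erasers and at none of the 4 writers in HCT116/Scrsh, against 43.5% of all protein-coding genes. KDM4B has 110 H3K9me2 regions in HCT116/ABsh-1 and 0 in HCT116/Scrsh.

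Longer genes offer more room for a region, and the 10 genes span 17.9 to 454.8 kb. JMJD1C, KDM4B, KDM4C and EHMT1 are each over 150 kb, and in HCT116/Scrsh 3 of these 4 had a KDM3B region, against 66.6% of the 2220 protein-coding genes of that length. KDM3A, KDM3B and KDM4A, between 50 and 150 kb, gave 2 of 3 against 53%. EHMT2, SUV39H2 and SETDB1, under 50 kb, gave 0 of 3 against 36.4%. The absence of KDM3B regions from the writers therefore came with shorter genes in 3 of 4 cases, and the part of length in it was not tested. For H3K9me2 in HCT116/ABsh-1 the same classes gave 3 of 4, 0 of 3 and 1 of 3, against 72.2%, 58.3% and 53.2%.

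KDM3A and KDM3B, the targets of the shRNA, differed from each other in the KDM3B lists. KDM3A (chr2:86667770-86719839, plus strand) had 1 KDM3B region in HCT116/Scrsh, at chr2:86668001-86668400, 400 bp wide with a score of 75, at percentile 89.9 of its list. The centre of the region lay 294 bp upstream of the main, or canonical, TSS and 276 bp downstream of the nearest alternative TSS. With 22 CpGs and a GC content of 54.5%, the region lay in the CpG-rich start of the gene. No region was listed there in HCT116/ABsh-1, and no H3K9me2 region was listed in the window or body of KDM3A in either population. The nearest H3K9me2 region of HCT116/ABsh-1 was 126.0 kb away.

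KDM3B (chr5:137688374-137772717, plus strand) had no region of any of the 4 lists in its 84.3 kb or its window. At the gene of the immunoprecipitated protein, no binding of the protein was thus listed. JMJD1C (chr10:64926981-65281610, minus strand), the other member of the family, had 1 KDM3B region in each population, but they were 197 kb apart along the gene. The HCT116/Scrsh region was 100 bp wide, with a score of 20 (percentile 42.0), in intron 2 and 38 bp from an internal TSS. The HCT116/ABsh-1 region was 100 bp wide, with a score of 9 (percentile 11.7), and lay 314 bp upstream of the canonical TSS, inside the antisense gene JMJD1C-AS1. A count of JMJD1C as listed in both populations therefore rests on places that do not overlap, each 1 window wide. Its only H3K9me2 region was also 1 window wide, with a score of 14 in intron 3 (chr10:64986201-64986300), and was listed in HCT116/Scrsh only. The start of TATDN1P1, a processed pseudogene, was 4286 bp from it.

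Of the KDM3B regions at the KDM4 erasers, that of KDM4A (chr1:44115820-44171189, plus strand) had the lowest score percentile. The region, listed in HCT116/Scrsh (chr1:44114001-44114100), was 1 window with a score of 8, at percentile 2.6 of its list. Its centre was 1770 bp upstream of the TSS of KDM4A, and its edge 1720 bp. A TSS of another protein-coding gene, for which the annotation gives no symbol, lay at the same 1720 bp from the edge. KDM4A had no region in the other 3 lists.

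KDM4B (chr19:4969124-5153609, plus strand, 184.5 kb) had 4 KDM3B regions in HCT116/Scrsh and 3 regions in HCT116/ABsh-1, all in introns and none within 5 kb of the canonical TSS. In HCT116/Scrsh their scores were 9 and 15 in intron 1, 58 in intron 2 and 49 in intron 6. In HCT116/ABsh-1 they were 9 in intron 1, 35 in intron 2 and 82 in intron 6. The regions of intron 2 and intron 6 were shared by both populations, whereas those of intron 1, each 1 window wide, were at different places. The intron 2 region kept the same limits (chr19:5031701-5031900), and that of intron 6 was 300 bp wide in HCT116/Scrsh (chr19:5048301-5048600) and 500 bp in HCT116/ABsh-1 (chr19:5048101-5048600). Its score percentile was 77.3 in the first list and 96.4 in the second, which is the shorter list, and its GC content was 67.0 and 68.8%. Per kb of gene body, the KDM3B regions of KDM4B covered 3.79 bases in HCT116/Scrsh, rank 59 of the 2220 genes over 150 kb. In HCT116/ABsh-1 they covered 4.34 bases, rank 5. These are 700 and 800 bases in all, and ranks of lists so unequal in length cannot be compared. KDM4B thus still had KDM3B regions in the list of the depleted cells, while KDM3A and KDM4A had none there.

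For H3K9me2, KDM4B went from 0 regions in HCT116/Scrsh to 110 in HCT116/ABsh-1. These covered 51300 bases, or 27.8% of the gene body. At 278.1 bases per kb, KDM4B ranked 4 of the 2219 protein-coding genes over 150 kb that have sequence in the assembly (1 has none). The regions were 100 to 3100 bp wide with a median of 300, and 13 were 1 kb or wider while 23 were a single window. The widest (chr19:5132601-5135700) scored 422, at percentile 99.4 of its list, and the median score of the 110 was 51.0, at percentile 67.0. The median gap between neighbours was 700 bp and the longest gap was 7.7 kb, in intron 1 (chr19:4989201-4996900). The regions were therefore not an unbroken block but a dense series of short stretches along the gene.

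The density of H3K9me2 changed at both ends of KDM4B. In steps of 10 kb from the canonical TSS, 19 steps inside the gene had 9.0 to 53.8% of their bases covered, with a median of 28%. The 5 steps before the gene had 0.0 to 7.0% (median 2.0%) and the 5 after it 0.0 to 9.2% (median 2.0%). The step with the highest cover, 53.8%, was 160 to 170 kb from the TSS and also had the highest GC content, 62.6%. Steps inside the gene had a GC content of 48.4 to 62.6%, those before it 49.5 to 54.1% and those after it 46.0 to 49.1%. The order of cover did not follow GC content step by step. The first step inside had a GC content of 56.0% and a cover of 9.0%, and the next but one had 48.4% and 10.8%. GC content and position in the gene changed together at both ends, and the part of each was not tested. The neighbouring genes had lower covers per kb than the 278.1 bases of KDM4B, namely 87.8 bases in PTPRS, a receptor tyrosine phosphatase, 40.1 in ARRDC5 and 38.9 in UHRF1, which encodes a reader of H3K9 methylation. All 3 still lay above the median of 0.52 bases per kb over all protein-coding genes in HCT116/ABsh-1. Their GC contents were 52.5% (PTPRS), 50.3% (ARRDC5) and 53.0% (UHRF1), against 57.3% in KDM4B. None of the 3 neighbours had an H3K9me2 base covered in HCT116/Scrsh.

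**Figure D2:**
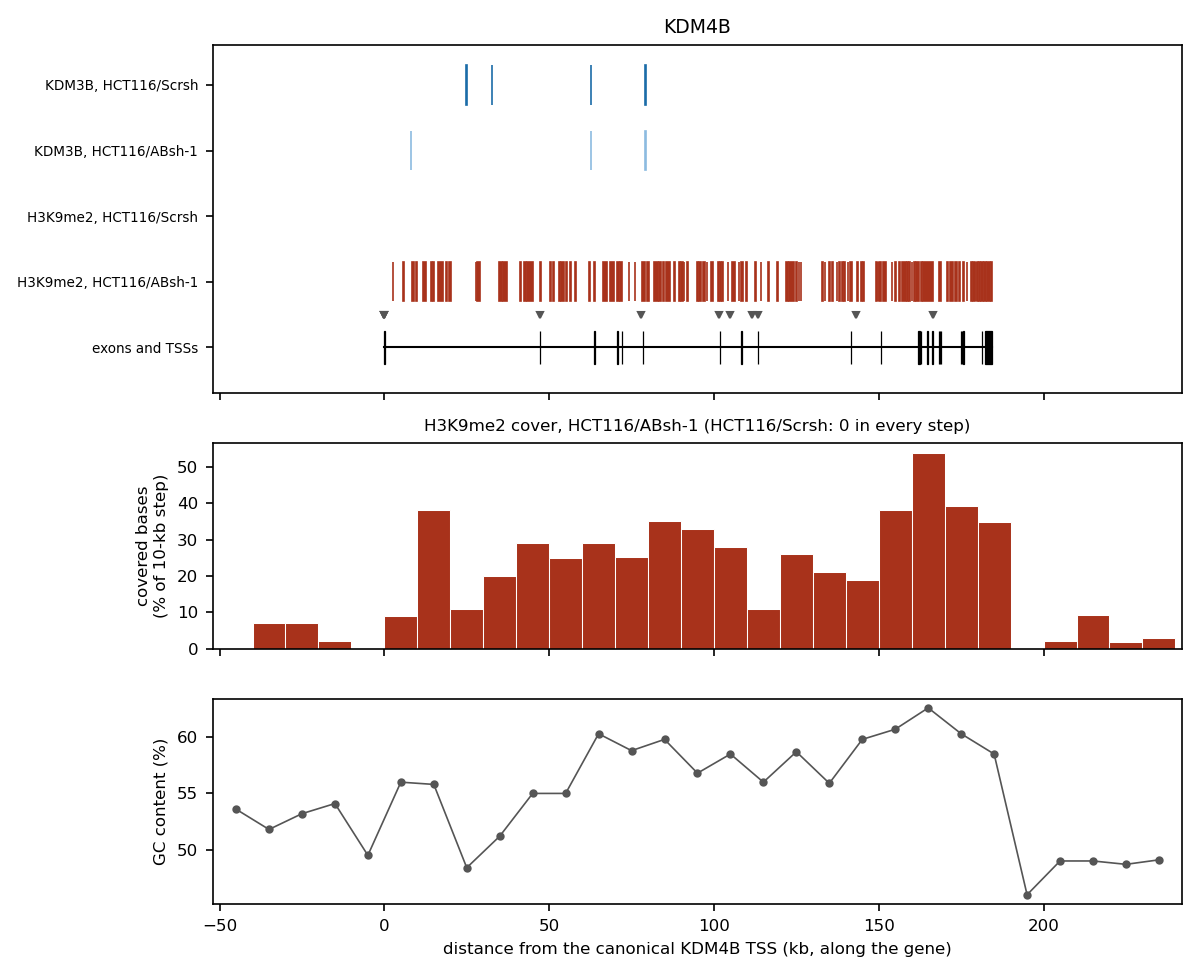
Top, regions of the 4 lists along KDM4B by distance from its canonical TSS, with exons as black boxes and annotated TSSs as triangles; middle, bases covered by H3K9me2 in HCT116/ABsh-1 as a percentage of each 10-kb step; bottom, GC content of each step. Steps inside the gene reach 53.8% cover, flanking steps stay at or below 9.2%, and H3K9me2 of HCT116/Scrsh is empty throughout.

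Exons of KDM4B were covered more densely than its introns. Of 23 exons of the canonical transcript, 18 were touched by an H3K9me2 region of HCT116/ABsh-1. Covered bases made up 62.7% of exon sequence and 71.7% of coding sequence, against 26.7% of intron sequence. In the same list the shares of exon and intron sequence were 8.9 and 2.4% in EHMT1, and 0.0 and 0.4% in KDM4C. No such share over all genes is given, and the part of GC content in the difference was not tested. Because introns are far longer, 104 of the 110 regions of KDM4B still had their centre in an intron. Introns 1, 6 and 9 held 17 centres each. These introns differ in length, intron 1 being the longest, so equal counts are not equal densities. Of the 110 regions, 37 lay in the window of any annotated TSS, but only 1 had its centre within 5 kb of the canonical TSS, so the mark was listed along the body. The window makes up 71859 of the 189486 bp of window and body, and the 37 regions in it are no more than that share of sequence gives.

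KDM3B and H3K9me2 regions overlapped once in KDM4B. The KDM3B region of intron 6 in HCT116/ABsh-1 shared 100 bp with an H3K9me2 region of the same cells. The other KDM3B regions of KDM4B, in either population, were 0.1 to 2.8 kb from the nearest H3K9me2 region of HCT116/ABsh-1. With 110 regions and a longest gap of 7.7 kb, any position in KDM4B lies within a few kb of one, so these distances show no more than that density. In KDM4C the KDM3B regions were 6.2 to 25.2 kb from one. In KDM3A, KDM4A and JMJD1C they were 26.2 to 507.0 kb away.

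KDM4C (chr9:6720863-7175648, plus strand, 454.8 kb) is the only one of the 10 genes with regions in all 4 lists. At its start, a KDM3B region of 300 bp with a score of 49 (chr9:6757601-6757900) was listed in HCT116/Scrsh, and one of 400 bp with a score of 56 (chr9:6757801-6758200) in HCT116/ABsh-1. They shared 100 bp, and their centres lay 223 bp upstream and 27 bp downstream of the canonical TSS, so the listed region reached further into the gene in HCT116/ABsh-1. Both were CpG-rich, with 28 and 44 CpGs. A second shared KDM3B region in intron 17 scored 64 over 200 bp in HCT116/Scrsh and 20 over 100 bp in HCT116/ABsh-1, and another, of 1 window with a score of 13 in intron 4, was listed in HCT116/ABsh-1 only.

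H3K9me2 at KDM4C was sparse in both populations. The list of HCT116/Scrsh held 9 regions covering 1300 bases, 2.86 per kb of gene body, and the list of HCT116/ABsh-1 held 12 covering 1900 bases, 4.18 per kb. Among genes over 150 kb this was rank 108 in the first list, of 11645 regions in all, and rank 547 in the second, of 88855, and the ranks of lists so unequal in length cannot be compared. Single windows made up 7 of the 9 and 9 of the 12 regions, and none touched an exon of the canonical transcript. Only 1 region of each list overlapped one of the other list.

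EHMT1 (chr9:140513444-140764468, plus strand, 251.0 kb) had no KDM3B region and 34 H3K9me2 regions in HCT116/ABsh-1, against 0 in HCT116/Scrsh. They covered 6557 bases of the window and body. In the gene body the cover was 22.31 bases per kb, rank 187 of genes over 150 kb. The regions were narrower than those of KDM4B, with a median width of 100 against 300 bp and a median score percentile of 28.9 against 67.0. Of the 34, 29 had their centre in an intron, and 4 of 27 exons were touched, so that 8.9% of exon sequence and 2.4% of intron sequence was covered. The widest region, of 1200 bp with a score of 204 (chr9:140507801-140509000), lay upstream of EHMT1 inside the neighbouring gene ARRDC1, with a TSS of ARRDC1 within it, and its centre was 5.1 kb from the canonical TSS of EHMT1. Inside the gene the widest region was 600 bp (chr9:140683201-140683800, score 93, 50 CpGs) in intron 15, and 487 bp of it lay in a transcribed processed pseudogene without a symbol. The gene ends 449 kb before the end of the assembled chromosome 9.

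**Figure D3:**
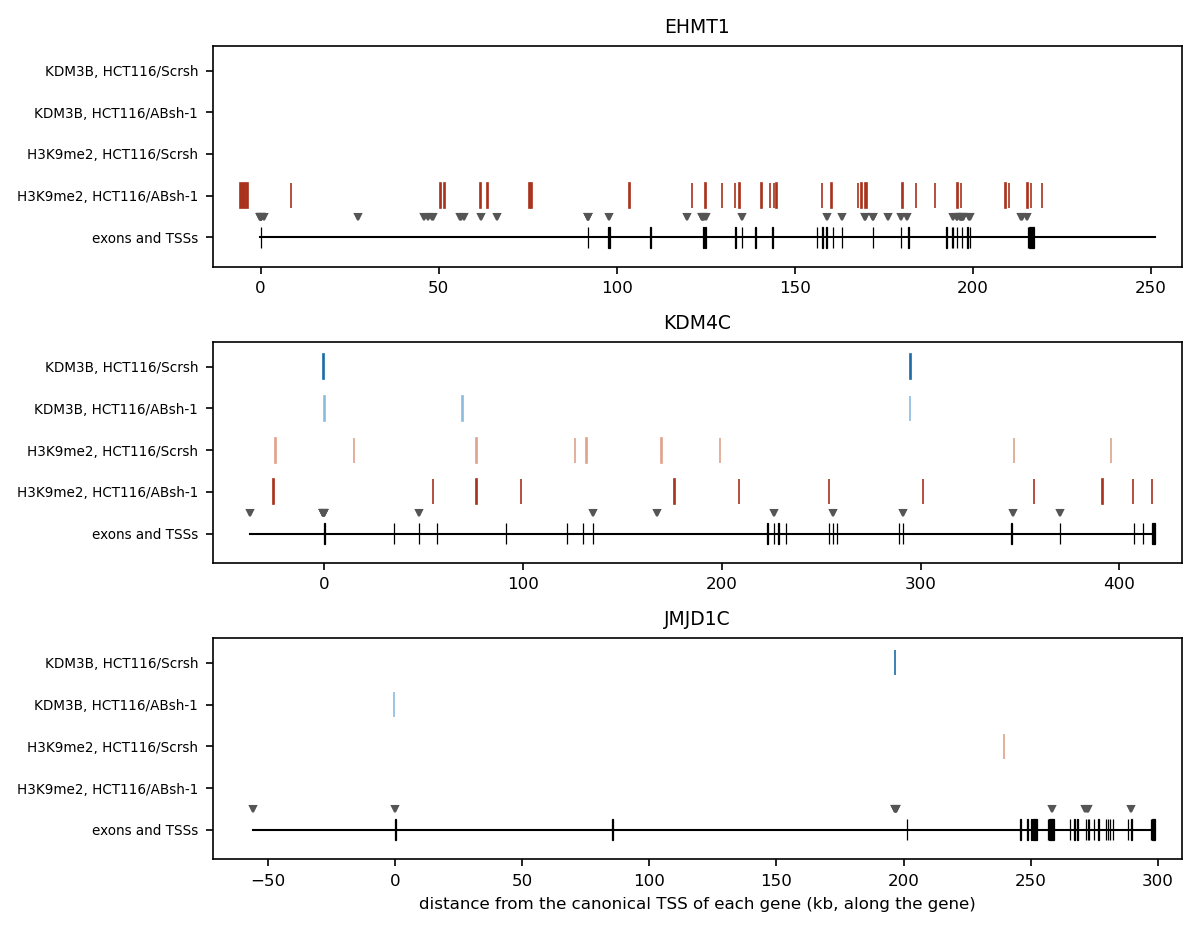
Regions of the 4 lists along EHMT1, KDM4C and JMJD1C by distance from the canonical TSS in kb, with exons as black boxes and annotated TSSs as triangles. EHMT1 has 34 H3K9me2 regions in HCT116/ABsh-1 and no other region, KDM4C has regions in every list, and the KDM3B regions of JMJD1C lie at different places in the 2 populations.

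EHMT2 (chr6:31847536-31865475, minus strand), at 17.9 kb the shortest of the 10 genes, had 2 H3K9me2 regions in HCT116/ABsh-1 and none in the other 3 lists. That nearest the start (chr6:31864101-31864500, score 72, percentile 77.5) was 1.2 kb into the gene, touched 2 exons and had its centre 20 bp from an alternative TSS. A TSS of the complement gene C2 was 1062 bp away. The other (chr6:31847601-31847900, score 43, percentile 61.1) lay in exon 28, the last exon, where the antisense gene EHMT2-AS1 overlaps and a TSS of the transporter gene SLC44A4 is 778 bp away. Together they covered 39.02 bases per kb, rank 3738 of the 13369 genes under 50 kb. SUV39H2 (chr10:14920819-14946314) and SETDB1 (chr1:150898739-150937220) had no region of any list.

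**Figure D4:**
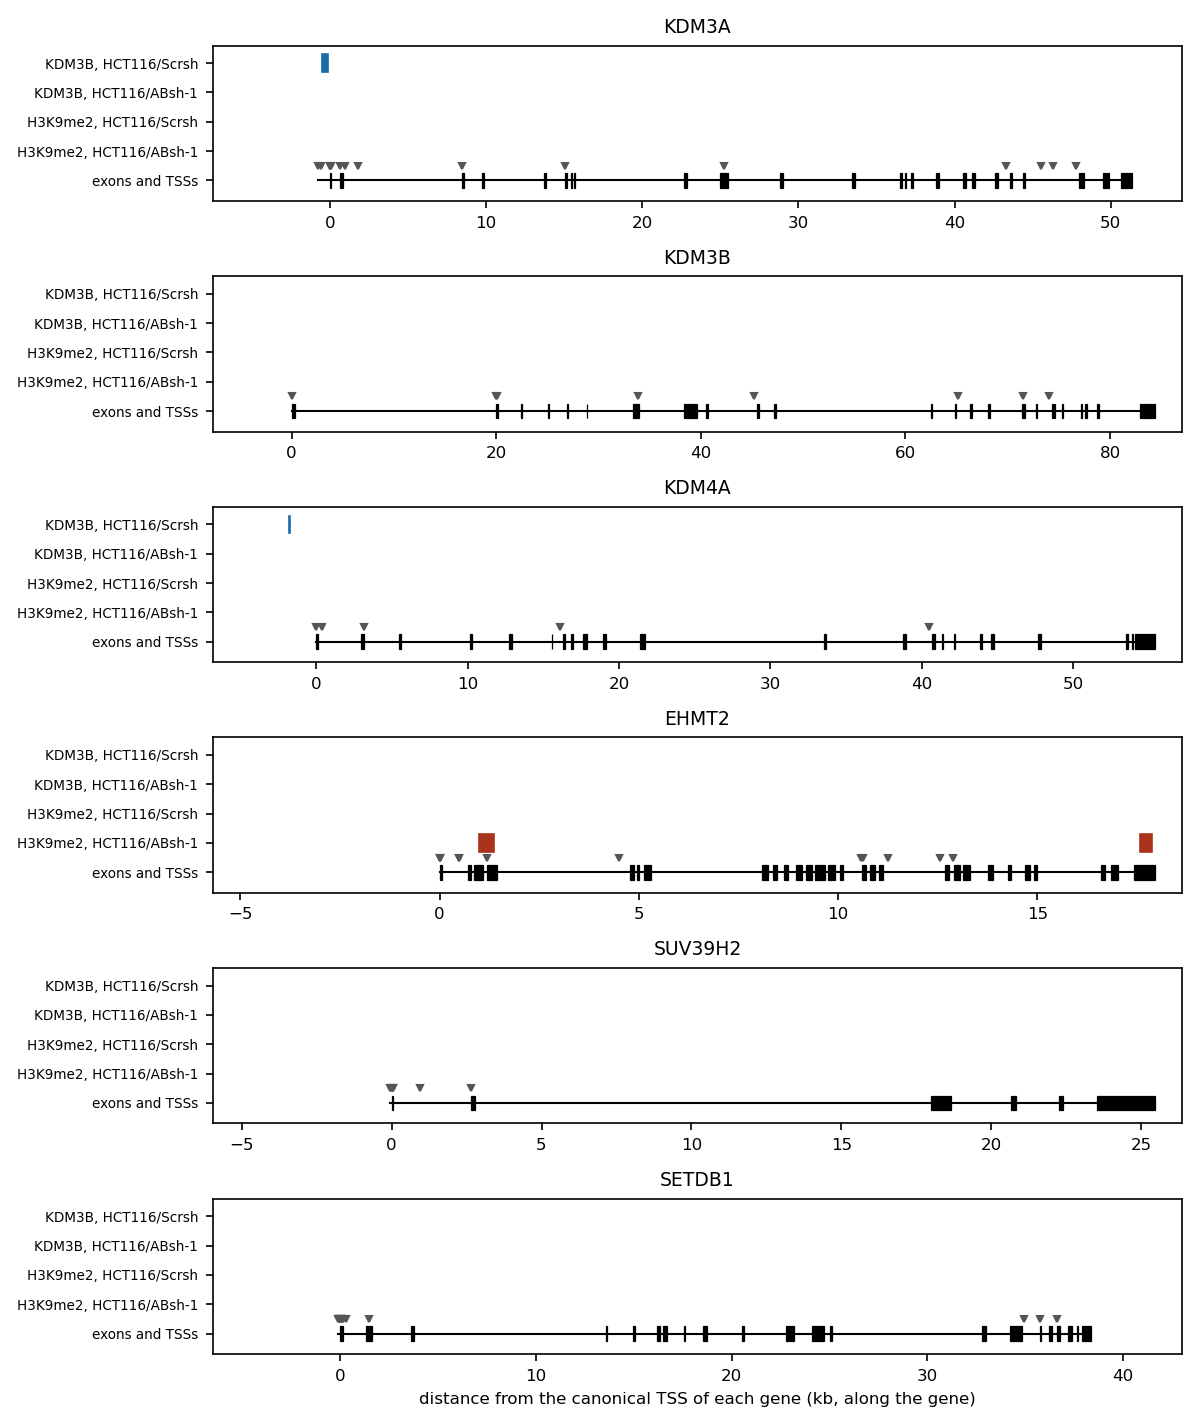
Regions of the 4 lists along the 6 genes under 150 kb by distance from the canonical TSS in kb, with exons as black boxes and annotated TSSs as triangles. KDM3A and KDM4A each have 1 KDM3B region in HCT116/Scrsh, EHMT2 has 2 H3K9me2 regions in HCT116/ABsh-1, and KDM3B, SUV39H2 and SETDB1 have none.

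GC content moved with the H3K9me2 cover of HCT116/ABsh-1. When the 2219 genes over 150 kb were put into 5 classes of GC content, the median cover was 0.0, 0.36, 0.7, 1.89 and 16.5 bases per kb from the lowest to the highest class. Across these genes, which share 1 library and are not independent, Spearman's rho of GC content and cover was 0.68 in HCT116/ABsh-1 and 0.25 in HCT116/Scrsh. JMJD1C (GC 38.1%), KDM4C (40.4%), EHMT1 (49.2%) and KDM4B (57.3%) had covers of 0.0, 4.18, 22.31 and 278.07 bases per kb, in the same order as their GC content. KDM4B and EHMT1 belonged to the highest of the 5 classes, in which they ranked 4 and 184 of 444 genes. The part of GC content in the H3K9me2 cover of these genes was not tested.

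Among the other genes of H3K9 methylation, H3K9me2 bases were again spread unevenly. The other genes, like the 10, were chosen with earlier results of these data known. Of 22 such genes (5 writers, 7 erasers and 10 partners or readers of the mark), 12 had a KDM3B region in the window or body in HCT116/Scrsh, against 43.5% of all protein-coding genes, and 9 did in HCT116/ABsh-1, against 25%. For H3K9me2, the numbers were 4, against 17.8%, and 11, against 56.4%. KDM3B covered most bases at CBX5 (600 in HCT116/Scrsh and 300 bases in HCT116/ABsh-1), UHRF1 (600 and 200) and CBX3 (500 and 400), of which CBX5 and CBX3 encode heterochromatin protein 1 proteins that bind methylated H3K9. H3K9me2 in HCT116/ABsh-1 covered most at PRDM16, a zinc finger gene also described as an H3K9 methyltransferase, with 255 regions, 108269 bases and 287.45 per kb, against 5 regions and 800 bases in HCT116/Scrsh. PRDM16 ranked 3 among the genes over 150 kb, next to KDM4B at 4, and had a GC content of 57.6% against 57.3%. In total bases PHF2, an eraser, followed with 7200 (200 in HCT116/Scrsh), and WIZ, a partner of EHMT1 and EHMT2, with 5300 (100 in HCT116/Scrsh). Per kb of gene body the order was different, with 237.27 bases in the eraser HR, which has 5000 in all, 163.45 in WIZ, 85.51 in KDM4E and 64.08 in PHF2. The value of KDM4E, an eraser gene of 2.3 kb, rests on 1 region with 200 bases. In HCT116/Scrsh, PRDM16 and PHF2 had the most H3K9me2 bases of these genes, and MECOM and WIZ followed with 100 each. Of these 5 other writers, 4 had a KDM3B region in HCT116/Scrsh (PRDM2, MECOM, PRDM16 and SETDB2), against 0 of the 4 writers above. Of the 7 other erasers, 3 had one, against 5 of the 6 erasers above. These groups are small, and the shares over all genes were 36.4% under 50 kb, 53% from 50 to 150 kb and 66.6% over 150 kb, so the difference between them was not tested.

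Short motifs were also looked for on both strands of the regions. The TCF/LEF core CTTTGAT was in 0 of 9 (HCT116/Scrsh) and 0 of 7 (HCT116/ABsh-1) KDM3B regions at the 10 genes, and in 2.8% and 1.78% of all KDM3B regions. The E-box CACGTG was in 1 of 9 and 2 of 7, and in 4.25% and 3.93% of all KDM3B regions. These were the region of KDM4B intron 6 in both populations and the region at the KDM4C start in HCT116/ABsh-1. In H3K9me2 regions of HCT116/ABsh-1 the E-box was in 15 of 158, against 9.29% of all, and the TCF/LEF core in 3 of 158, against 1.65%. In the RefSeq promoters of GRCh38.p14, from 250 bases before to 50 after each start, all 10 genes matched. The E-box was in the promoters of 5 of them (EHMT2, JMJD1C, KDM4B, KDM4C and SETDB1), against 7.26% of all promoters, and the TCF/LEF core in none, against 2.62%. Some genes have more than 1 promoter entry, and regions of different widths offer different room for a match, so these shares are descriptions only.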

How the data were processed

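ChIP-seq libraries of KDM3B and H3K9me2 from HCT116/Scrsh and HCT116/ABsh-1 cells were analysed, 1 library per antibody and population. The authors mapped short reads to hg19 with Bowtie, kept reads of unique position without duplicates, and tested ChIP against input in windows of 100 bp with the Poisson distribution. Each ChIP library has 1 list, giving for each region its position and a whole-number score deposited by the authors, whose meaning is not given in the sources used here. The 2 inputs were not analysed here, and 1 H3K9me2 region of KDM4C, which the counts include, is not described here. Depth is unknown, and no interval that needs it is given.

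Regions sharing at least 1 bp with the 5 kb on either side of any TSS of a gene, or with its body, were assigned to it with GENCODE release 44 in its hg19 version. A region can be assigned to more than 1 gene. The canonical transcript gave exons and introns. Cover is the number of bases in a region of a list, per kb of gene body. With 1 library per condition no test was made. The 10 genes and the list of 22 other genes were chosen with earlier results of these data known. Named were the 10 genes and the 3 of the other 22 with the most covered bases in each list. Genes with a TSS within 5 kb of a described region were also named. The genes that flank KDM4B, and HR, KDM4E, PRDM2 and SETDB2, were named after their values were seen. Calculations ran in Python 3.11.15 (numpy 2.4.6, matplotlib 3.10.9, pandas 2.3.3), and the assignment was tested on simulated data. Alternatives were windows of 2 kb, TSSs of protein-coding transcripts or the canonical TSS alone, the centre of a region, the upper part of each list by score, regions of at least 200 bp, equal numbers of regions, and regions less than 1 kb apart merged.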

Additional observations from a re-analysis of the deposited data

How the results depend on the processing

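Of 160 values recomputed under 8 alternatives, 129 moved little and 31 moved by over 1.5 times; none can be tested with 1 library per condition. With the canonical TSS alone, 3 of the 10 genes had a KDM3B region in the window in HCT116/Scrsh and 0 an H3K9me2 region, against 5 and 1. With the upper 50% of each list by score, KDM3B regions of HCT116/Scrsh lay at 3 genes in the window and 3 with the body, KDM3B regions numbered 5 (HCT116/Scrsh) and 4 (HCT116/ABsh-1), H3K9me2 regions 3 (700 bases) and 93 likewise, and 1 gene had KDM3B in HCT116/Scrsh only. With regions of at least 200 bp, the same gene counts were 3 and 3, KDM3B regions 5 and 3, H3K9me2 regions of HCT116/Scrsh 2 (600 bases, 1 gene), and 1 gene had KDM3B and 0 had H3K9me2 in HCT116/Scrsh only. With equal numbers of regions per antibody, the gene counts were 3 and 3 with 5 KDM3B regions in HCT116/Scrsh, 1 gene had KDM3B in HCT116/Scrsh only and 1 in HCT116/ABsh-1 only. H3K9me2 in HCT116/ABsh-1 was then at 2 genes by either rule, in 25 regions of 27057 bases, namely KDM4B with 24 regions and 26500 bases and EHMT1 with 1 region, while KDM4C and EHMT2 had 0. JMJD1C and KDM4C, 2 genes, then had it in HCT116/Scrsh only. Merging regions less than 1 kb apart gave 85 H3K9me2 regions over 100331 bases in HCT116/ABsh-1, of which KDM4B held 45 over 85509 bases. The alternatives narrow the windows, drop regions or merge them, so none could add to the 0 H3K9me2 regions of KDM4B in HCT116/Scrsh. In HCT116/ABsh-1 KDM4B kept at least 24 regions. Changes of window or TSS keep the whole gene body, so they could not lower its 110 regions. No paired analysis was possible because the result comes from no test and each group has 1 sample. Depth is unknown, so a gene without a region is not shown to lack the protein or the mark.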
